A study of Drosophila melanogaster with 10 samples.

Results

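The 10 genes described here encode the enzymes that make the main neurotransmitters of the fly and the transporters that load or recapture them. ChAT and VAChT serve acetylcholine, VGlut glutamate and Gad1 GABA, while ple, Ddc, Vmat, DAT, SerT and Tdc2 serve dopamine, serotonin, tyramine and octopamine. They were chosen by name through the platform annotation, and all 10 have at least 1 probe set, a group of short probes that reports 1 transcript. They have 14 of the 18769 probe sets that are not controls. Vmat has 4, VGlut has 2 and the others have 1 each.

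RNA was labelled as from heads of control flies of the yw strain and was hybridised to 10 Affymetrix arrays that cover 6 times of day. ZT, zeitgeber time, counts hours of the daily cycle, with lights on at ZT0 by convention. There are 3 arrays at ZT3 and 3 at ZT15, but a single one at each of ZT7, ZT11, ZT19 and ZT23. The sources used here do not give the number of flies per array, their age, their sex, the light schedule or whether replicates were separate cultures. Every p-value therefore covers the spread between these arrays alone, and that spread may be technical. The strain's name stands for mutations of yellow and white, genes of cuticle and eye pigmentation. The protein of white carries pigment precursors, among them tryptophan, from which serotonin is also made.

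A fly neuron is classed by the transmitter it releases, and each class is marked by the enzyme that makes the transmitter and the protein that packs it into synaptic vesicles. Acetylcholine is the main excitatory transmitter of the fly brain, GABA the main inhibitory one, and glutamate is released by motor neurons and by some central neurons. Monoamines are made by far fewer neurons and act on sleep, arousal, feeding and learning. Reuptake transporters in the cell membrane end the signal. ple and Ddc also act in the epidermis, where dopamine feeds the tanning and pigmentation of the cuticle.

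Levels are natural logs of the deposited intensities, likely equal to the log2 values that the authors' method, GCRMA, returns, and are called log2 units here. If the deposited intensities were plain ones, each difference would be 1.44 times larger on a log2 scale. Probe sets bind with unequal strength, so each was compared only with itself across arrays, and levels of different genes were not ranked. Of the 14 probe sets, 12 had a mean of at least 4 log2 units over all arrays and were tested among 12991 that did. The 2 below it were VGlut 1640545_at, at 1.96 to 2.40, and Vmat 1632856_s_at, at 3.01 to 3.71. Both genes have another probe set that was tested.

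Clustered without the transmitter genes, replicates 1 and 2 of ZT3 and replicates 2 and 3 of ZT15 formed a set of 4. ZT3 replicate 3, ZT15 replicate 1 and the single arrays formed a set of 6 with 1 array of each time. Arrays of the same set correlated at 0.968 to 0.992, and arrays of different sets at 0.72 to 0.83. Neuron and photoreceptor markers, which a head should hold, had medians per array of 10.7 to 11.7 and 13.2 to 14.0 on all 10 arrays. Testis and accessory gland markers, which a head should lack, were high on the set of 6. Their medians were 12.2 and 12.6 there and 4.19 and 3.60 on the set of 4. All 10 markers of each list were higher on every array of the set of 6, beside 22.0% of all probe sets tested. The values of the set of 6 are therefore not read as levels of heads alone. In RNA of mixed tissue fewer cells of a type and less RNA per cell cannot be told apart. Each test was fitted with and without a term for the array set, called the block, and ZT3 and ZT15 are spread evenly over the sets.

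**Figure D1:**
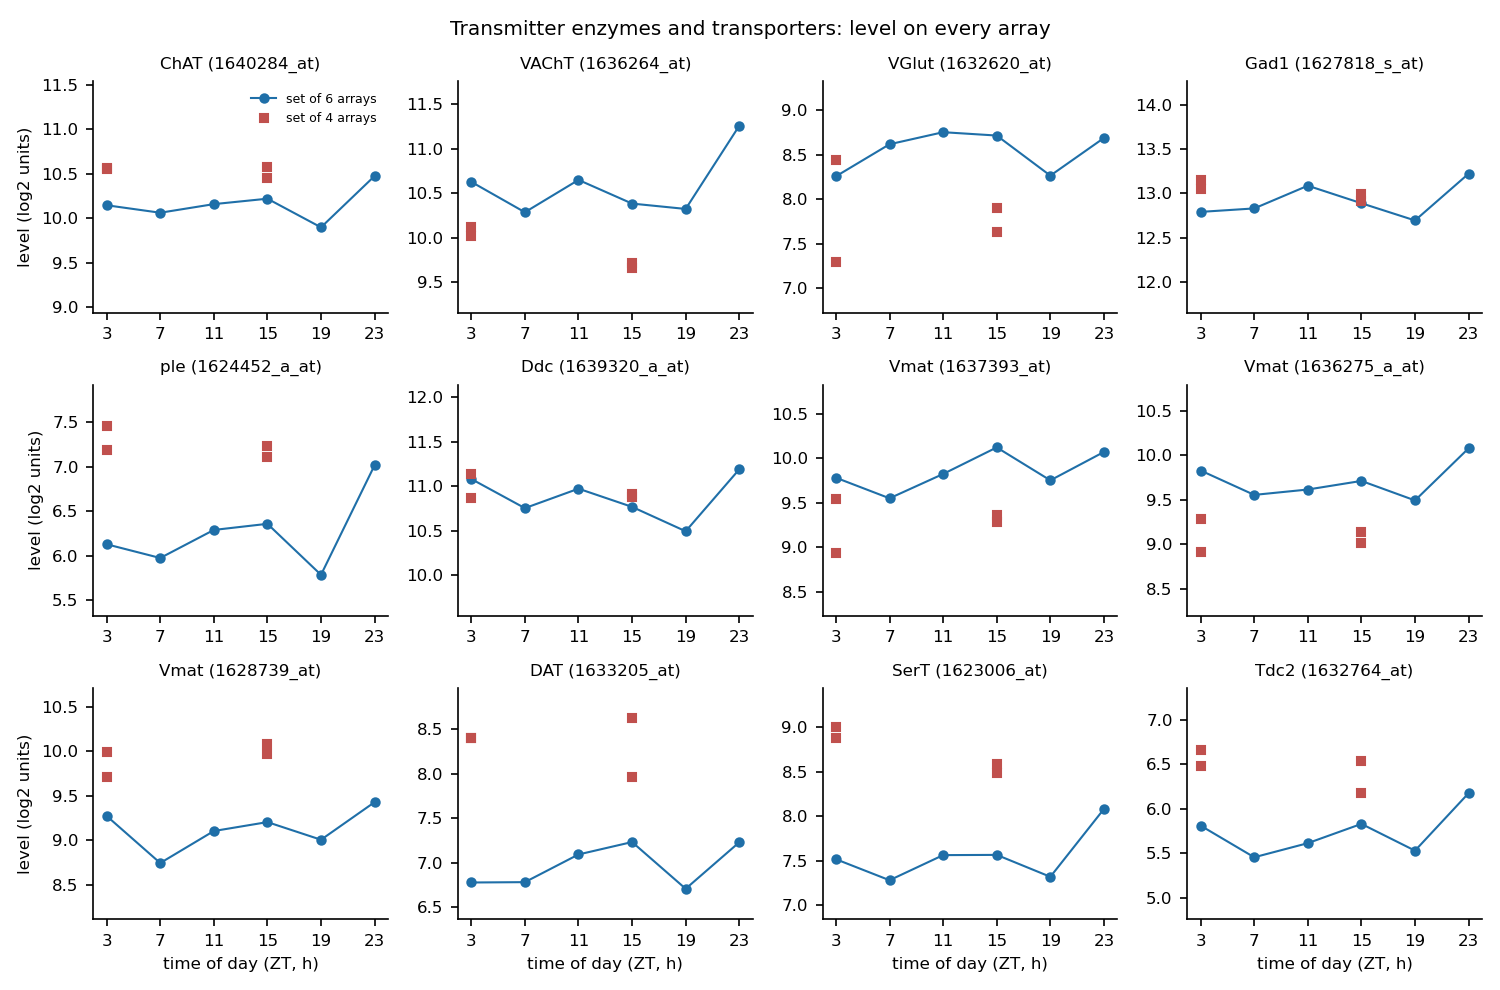
Level in log2 units (y) of the 12 tested probe sets of the 10 genes against time of day in hours (x); blue circles joined by lines are the 6 arrays of the set of 6 and red squares the 4 arrays of the set of 4. The y axes differ between panels. DAT, SerT, ple and Vmat 1628739_at lie higher on every array of the set of 4, and VAChT and the other 2 Vmat probe sets lower.

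The comparison of ZT15 with ZT3 addresses whether transmitter genes differ between early night and early day. None of the 12 probe sets passed the threshold, an adjusted p of 0.05 (limma, Benjamini-Hochberg over all 12991). Of all probe sets 0.0308% passed. With the array set as a block 0 of 12 passed again, beside 0.154% of all. At an unadjusted p under 0.05 there were 0 of 12 without the block and 1 with it (limma), beside 1.81% and 9.60% of all. On the set of 4 alone, with 2 arrays per time, 0 of the 12 and 0 of all probe sets passed. There 2 of the 12, VAChT and SerT, had an unadjusted p under 0.05 (limma). The share of all probe sets at that level was not counted for this fit. The median size of the difference was 0.090 for the 12 and 0.135 for all probe sets tested, and the largest was 0.34.

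VAChT, the transporter that fills vesicles with acetylcholine, was the 1 of the 12 with an unadjusted p under 0.05 in the block fit of all 6 arrays (limma). At ZT3 it was at 10.12, 10.02 and 10.63 on replicates 1 to 3, and at ZT15 at 10.38, 9.72 and 9.66. The times overlapped over all arrays but not within the set of 4, where the share of all probe sets that separate this way is not given. The set of 6 has 1 array at each of these times, so overlap cannot be judged there. The difference was -0.34 ± 0.29 (SE, n = 3 each, adjusted p 1.0, limma) without the block and -0.34 ± 0.096 with it, where the unadjusted p was 0.017 and the adjusted p 0.40 (limma). It was -0.38 within the set of 4 and -0.24 within the set of 6.

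ChAT, the enzyme that makes acetylcholine, is neighbour and host of VAChT. In the reference annotation (Release 6) the span of VAChT lies inside that of ChAT and both spans share 1 end. ChAT was at 10.56, 10.55 and 10.15 at ZT3 and at 10.22, 10.45 and 10.58 at ZT15. Its values at the 2 times overlapped almost fully. The difference was below 0.01 in size, with a 95% interval from -0.25 to 0.24 under the block.

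Gad1, which makes GABA from glutamate, had 3 narrow values per time: 13.05, 13.15 and 12.79 at ZT3 and 12.89, 12.92 and 12.99 at ZT15. The difference was -0.06, with a 95% interval under the block from -0.33 to 0.21. For Ddc, the decarboxylase that forms dopamine and serotonin, the values were 10.87, 11.14 and 11.08 at ZT3 and 10.77, 10.89 and 10.92 at ZT15. Its difference was -0.18, with an interval from -0.48 to 0.13. With ChAT and VAChT, these genes had the narrowest intervals under the block, with half-widths of 0.25 to 0.31.

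The remaining genes were measured less tightly. VGlut, which fills vesicles with glutamate, was at 7.29, 8.44 and 8.26 at ZT3 and at 8.71, 7.90 and 7.63 at ZT15. The gap of 1.14 between ZT3 replicates 1 and 2, which belong to 1 array set, was the widest such gap among the genes, and the interval under the block ran from -0.76 to 0.93. DAT, the dopamine reuptake transporter, had the next widest gap of a pair, 0.66 between ZT15 replicates 2 and 3, and an interval from -0.49 to 0.64. For ple, the tyrosine hydroxylase that limits dopamine synthesis, the difference was -0.03 (interval -0.39 to 0.33). It was -0.25 for SerT, the serotonin reuptake transporter (-0.60 to 0.09), and -0.14 for Tdc2, the neuronal tyrosine decarboxylase that makes tyramine (-0.50 to 0.23). The 3 tested probe sets of Vmat, which packs monoamines into vesicles, differed by 0.17, -0.05 and 0.09.

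Leaving out 1 of the 6 arrays turned the sign of the difference for ChAT, VGlut, ple, DAT and Vmat 1636275_a_at and 1628739_at with the block and without it. For Gad1, SerT, Tdc2 and Vmat 1637393_at it did so only without the block, and for VAChT and Ddc in neither fit. Since none of the 12 passed, no direction is given for any of them.

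**Figure D2:**
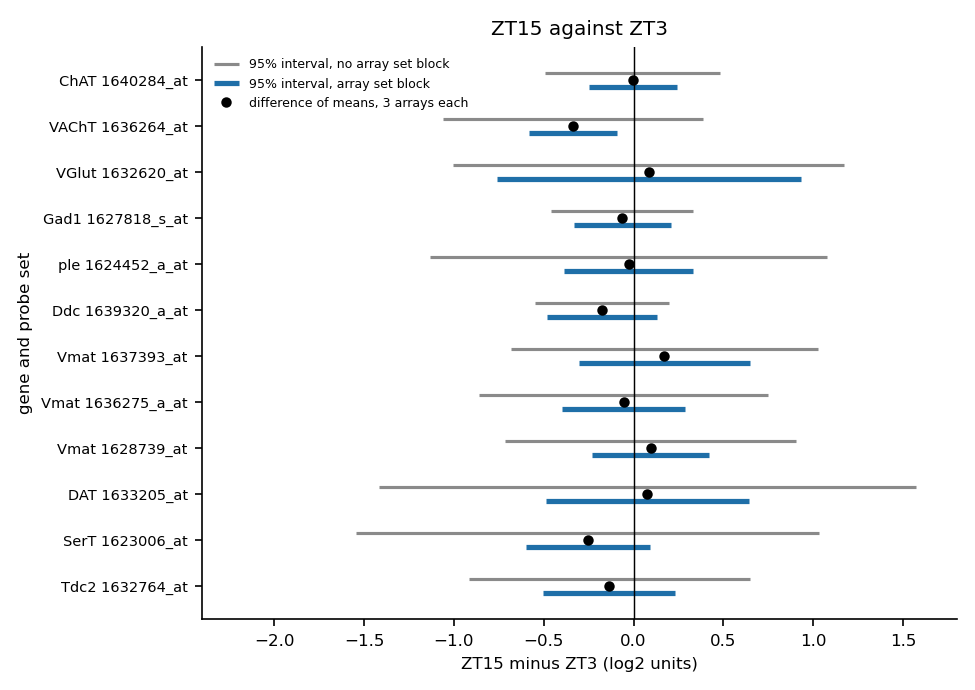
Difference ZT15 minus ZT3 in log2 units (x) for each tested probe set (y): black points are the difference of the means of 3 arrays each, grey lines its 95% interval from limma without the array set block and blue lines with it. All grey intervals include 0, and with the block the interval of VAChT, from -0.58 to -0.09, does not, before any adjustment.

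Whether the genes cycle was asked with a cosine of 24 hours over all 10 arrays. None of the 12 probe sets passed without the block or with it (limma F test, Benjamini-Hochberg), beside 0.0385% and 0.508% of all probe sets. At an unadjusted p under 0.05 there were 0 of 12 in both fits, beside 1.61% and 7.91%. The fitted amplitude, the distance from the mean to the peak, had a median of 0.139 for the 12 and 0.126 for all probe sets. The largest were 0.26 ± 0.13 (SE with the block) for VAChT, 0.22 ± 0.12 for SerT and 0.21 ± 0.12 for Tdc2, with adjusted p of 0.83, 0.88 and 0.92 (limma). Their fitted peaks, at ZT24.0, ZT23.8 and ZT22.8, were close to the array at ZT23. The smallest was that of DAT, at 0.026 ± 0.13.

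The set of 6 holds 1 array of each time and so gives a single time course. On it 9 of the 12 probe sets were highest at ZT23, 2 at ZT15 and 1 at ZT11, while 6 were lowest at ZT19, 5 at ZT7 and 1 at ZT3. Of all probe sets tested, 29.2% were highest at ZT23, and 21.8%, 16.3% and 18.1% were lowest at ZT19, ZT7 and ZT3. The median deviation of the 12 from their own means was 0.31 at ZT23 and -0.25 at ZT19, beside 0.020 and -0.044 for all probe sets tested.

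ple was at 6.13, 5.97, 6.29, 6.36, 5.78 and 7.02 from ZT3 to ZT23 on this set. Its value at ZT23 stood 0.66 or more above every other time, and its range of 1.23 was the widest of the 12, or 2.35-fold. VAChT was at 10.63, 10.29, 10.65, 10.38, 10.32 and 11.26. SerT was at 7.52, 7.28, 7.56, 7.57, 7.32 and 8.08. For these genes too ZT23 was the single high array, and the other 5 times lay within 0.57, 0.36 and 0.285 of each other for ple, VAChT and SerT.

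The other genes varied less. ChAT was at 9.90 to 10.48, Gad1 at 12.70 to 13.22, Ddc at 10.49 to 11.19 and Tdc2 at 5.45 to 6.17, each with its highest value at ZT23. DAT (6.71 to 7.23) was highest at ZT15, by less than 0.01 over ZT23. VGlut (8.26 to 8.75) was highest at ZT11 and lowest at ZT3. Of the 12 ranges, 9 were wider than both gaps between the paired replicates of the set of 4, as were 82.4% of all probe sets tested. A range over 6 arrays tends to be wider than a gap between 2. The 3 exceptions were VGlut, DAT and Vmat 1637393_at.

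Neuron markers moved with these values. All 12 neuron markers were highest at ZT23 on the set of 6, and their median was at 11.74 there and at 11.24 to 11.49 at the other times. Of 6 glial markers 3 were highest at ZT23. When each array was centred on its neuron marker median, 3 of the 12 probe sets were highest at ZT23 and 5 at ZT3. The neuron marker median deviated from its mean over this set by 0.33 at ZT23 and -0.12 at ZT3. Centring takes these amounts off every probe set alike, and the shares of all probe sets after it were not counted. The counts after centring are therefore not read as a trait of these genes. After centring the range of ple was 0.74 and that of ChAT 0.20. The part of neuron content was not tested, and the time ZT23 and its single array cannot be told apart.

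**Figure D3:**
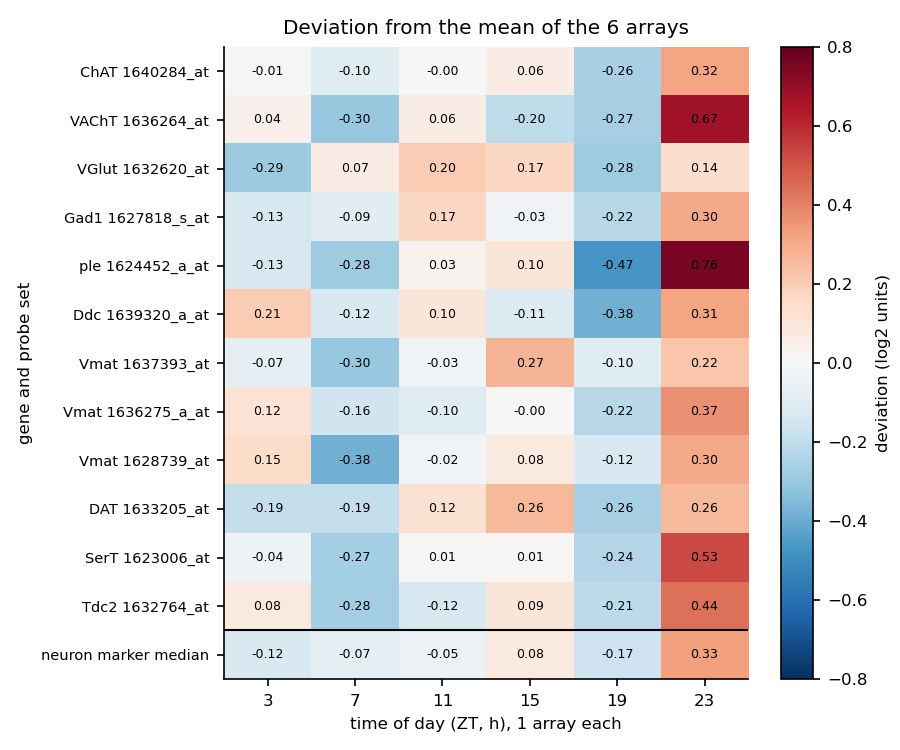
Deviation of each probe set from its mean over the set of 6 arrays, in log2 units (colour and printed value), for 6 times of day (x, 1 array each) and 12 tested probe sets (y); the last row is the median of 12 neuron markers. ZT23 is the highest time for 9 of the 12 probe sets and for the neuron marker median, and ZT19 the lowest for 6.

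Pairs of genes that share a locus or a transmitter were set against each other over the 6 arrays of this set, in 6 pairs, with Vmat taken by 1637393_at, its probe set with the highest mean. None passed after Benjamini-Hochberg adjustment (exact permutation tests over all pairings, two-sided). ple and DAT had a Pearson r of 0.83 (exact p 0.011, adjusted 0.067) and a Spearman rho of 0.89 (exact p 0.033, adjusted 0.067), and r was 0.93 without the 2 arrays farthest from the median of ple. ChAT and VAChT had an r of 0.86 (exact p 0.032, adjusted 0.080) and a rho of 0.77 (exact p 0.10, adjusted 0.12). Their r was 0.32 without the 2 farthest arrays, so it rests on those. ple and Ddc had an r of 0.77 (exact p 0.067, adjusted 0.080) and a rho of 0.77 (exact p 0.10, adjusted 0.12), but an r of 0.064 without the 2 farthest arrays. Vmat and SerT had an r of 0.74 (exact p 0.057, adjusted 0.080) and a rho of 0.94 (exact p 0.017, adjusted 0.067), with an r of 0.80 without the 2 farthest. Tdc2 and Vmat had an r of 0.80 (exact p 0.054, adjusted 0.080) and a rho of 0.89 (exact p 0.033, adjusted 0.067), with an r of 0.62 without them. Ddc and Vmat had an r of 0.36 (exact p 0.47, adjusted 0.47) and a rho of 0.54 (exact p 0.30, adjusted 0.30), and an r of -0.064 without them. After neuron marker centring the 6 values of r lay between -0.11 and 0.45, and the smallest adjusted exact p of r was 0.85. The rho then ran from -0.37 for Ddc and Vmat to 0.71 for ple and DAT (unadjusted exact permutation p 0.14). Without the 2 farthest arrays r ran from -0.87 for Vmat and SerT to 0.80 for ple and DAT.

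Differences between the array sets were larger than those between ZT15 and ZT3. Their median size was 0.72 against 0.090 for the 12 probe sets, and 0.54 against 0.135 for all tested. Set differences are described without a test, since the sets were drawn from the same arrays. Of the 12 probe sets, 4 were higher on every array of the set of 4 than on any of the set of 6, beside 33.3% of all probe sets tested. Another 3 were lower on every array, beside 22.0%. A share of 7 in 12 is near that of all probe sets.

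Monoamine genes have 8 of the 12 probe sets. They hold the 4 higher ones (DAT, SerT, ple and 1 of Vmat), 2 of the 3 lower ones (both Vmat) and 2 whose sets overlapped (Ddc and Tdc2). DAT was at 8.41 and 8.40 at ZT3 and at 7.96 and 8.62 at ZT15 on the set of 4. On the set of 6 it ran from 6.71 to 7.23, so the sets stood apart by 0.73 at their nearest. The means were 8.35 ± 0.28 (SD, n = 4) and 6.97 ± 0.24 (SD, n = 6), a difference of 1.38 or 2.60-fold. SerT was at 9.01, 8.88, 8.59 and 8.49 on the set of 4 and at 7.28 to 8.08 on the set of 6, a difference of 1.19 or 2.28-fold. ple was at 7.46, 7.19, 7.23 and 7.10 on the set of 4. The set of 6 reached 7.02 with the array at ZT23 and was at 5.78 to 6.36 without it, a difference of means of 0.99 or 1.98-fold. Tdc2 was higher by 0.73 on average, but its ZT23 array, at 6.17, met the lowest array of the set of 4.

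The probe sets of Vmat disagreed. Vmat 1628739_at was at 9.71 to 10.08 on the set of 4 and at 8.74 to 9.43 on the set of 6, a difference of 0.81. Vmat 1637393_at (8.93 to 9.55 against 9.55 to 10.12) and 1636275_a_at (8.91 to 9.28 against 9.49 to 10.08) were lower on the set of 4, by -0.57 and -0.63. No direction can therefore be given for the gene. The sets of 1637393_at stood apart by only 0.0029 at their nearest and overlapped after array median centring. Where on the transcript each probe set lies is not analysed here.

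VAChT, at 9.66 to 10.12 and 10.29 to 11.26, was lower on the set of 4 by -0.71, while its neighbour ChAT was higher by 0.38 with overlapping sets (10.45 to 10.58 and 9.90 to 10.48). VGlut was lower by -0.73, with ranges of 7.29 to 8.44 and 8.26 to 8.75 that overlapped through ZT3 replicate 2. Gad1 and Ddc differed by 0.11 and 0.08, less than the SD of the set of 6 (0.20 and 0.25). These differences kept their signs for all 12 under each other scaling tried. The median of all probe sets was 0.18 as deposited, 0.29 after quantile normalization and 0.72 after neuron marker centring. Under the last scaling ChAT was at 0.92, while Gad1 at 0.65 and Ddc at 0.62 lay below that median of 0.72. The sets of each did not overlap there, but the share of all probe sets apart under this scaling was not counted.

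Of 12 neuron markers, 11 were lower on the set of 4, 5 of them on every array, beside 22.0% of all probe sets tested. The median gene difference of these markers was -0.37. Their median per array was 10.7 to 11.1 on the set of 4 and 11.2 to 11.7 on the set of 6. Of 6 glial markers all were higher on the set of 4, 4 of them on every array, beside 33.3% of all probe sets tested. Their median gene difference was 0.49. After neuron marker centring 8 of the 12 transmitter probe sets were higher on every array of the set of 4 and 0 lower. That scaling moved the median difference of all probe sets tested from 0.18 to 0.72, and their share apart under it was not counted. The 8 are therefore not read as a trait of these genes. VAChT, VGlut and the 2 lower Vmat probe sets differed by -0.17, -0.19, -0.084 and -0.023 under it. The gap between 3' and 5' control probe sets, a sign of how far labelling ran along a transcript, was wider on the set of 4 in 4 of 5 control pairs. It was wider by 0.68 for the second Act5C pair, where the sets did not overlap, by 0.17 to 0.21 in 3 others and narrower for the second Gapdh pair (-0.17). The part of testis tissue, neuron content or labelling in the differences between the sets was not tested.

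**Figure D4:**
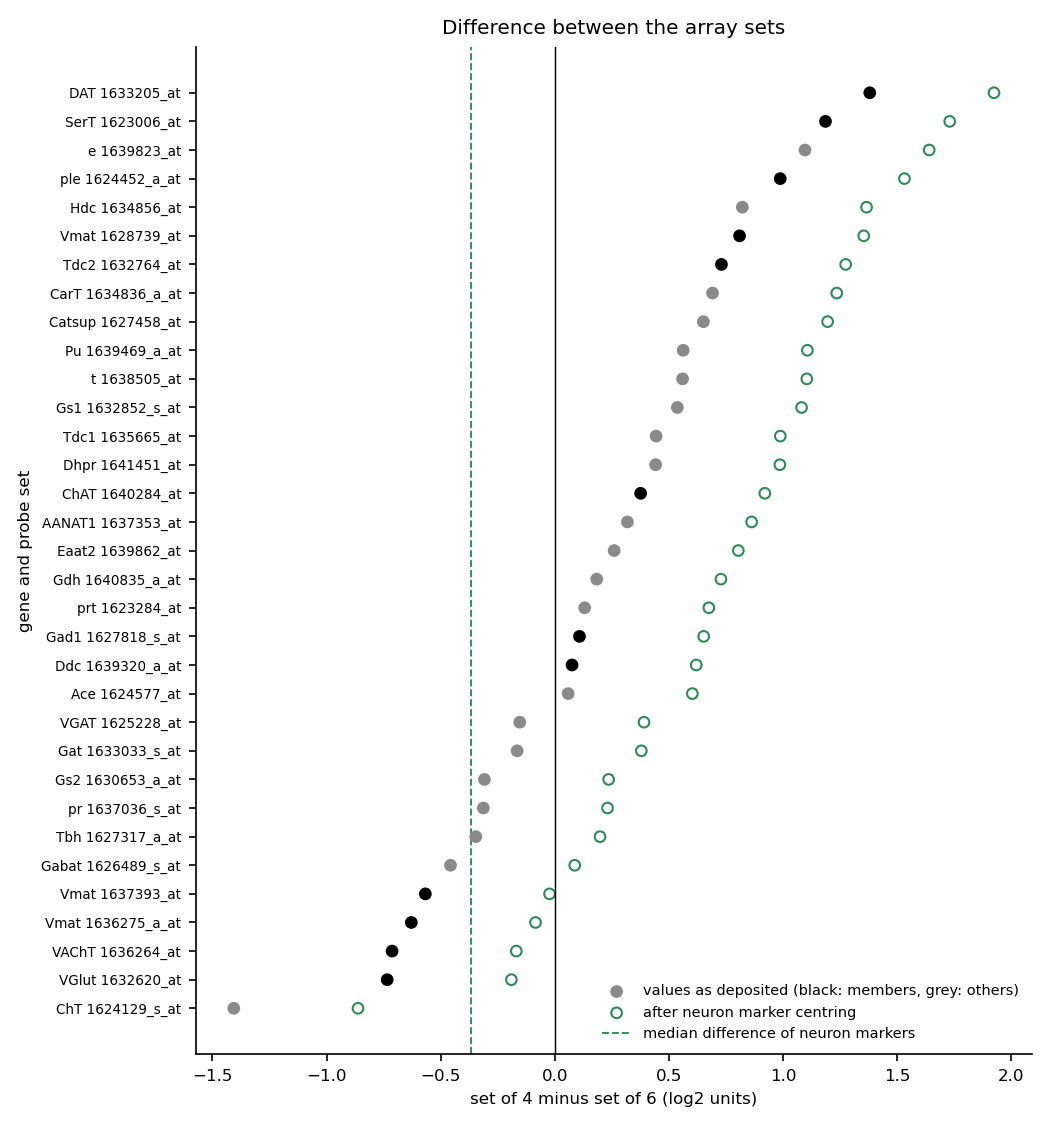
Difference set of 4 minus set of 6 in log2 units (x) for 12 tested probe sets of the 10 genes (black) and 21 of other transmitter genes (grey), sorted (y); green rings give the same after each array was centred on its neuron marker median, and the dashed line marks the median gene difference of 12 neuron markers, -0.37. DAT has the highest difference, 1.38, and ChT the lowest, -1.41; the 3 Vmat probe sets lie on both sides of 0.

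Of 25 other genes of transmitter synthesis, transport and turnover, listed with earlier results of these data known, 21 had a probe set and all 21 were tested. For ZT15 against ZT3 none passed without or with the block (limma), beside 0.0308% and 0.154% of all probe sets. An unadjusted p under 0.05 was reached by 1 and 3 of the 21 (limma), beside 1.81% and 9.60% of all. Each of these was lower at ZT15. For the rhythm 0 passed without the block and 1 with it, beside 0.0385% and 0.508% of all. Here 1 and 3 had an unadjusted p under 0.05 (limma F test), beside 1.61% and 7.91% of all. By class, the 1 that passed was among the 10 monoamine genes. None of the 2 acetylcholine genes, the 7 glutamate and GABA genes or the 2 histamine genes passed. Between the array sets, 6 of the 21 were higher on every array of the set of 4 and 2 lower, beside the 33.3% and 22.0% of all probe sets. Of the 10 monoamine genes among them 5 were higher and 1 lower.

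The gene that passed was t (tan), whose hydrolase frees dopamine and histamine from their beta-alanine conjugates and serves histamine recycling at photoreceptors. At ZT3 it was at 13.26, 13.06 and 12.64, at ZT7 at 11.67 and at ZT11 at 10.94. At ZT15 it was at 11.94, 12.16 and 12.18, at ZT19 at 12.28 and at ZT23 at 13.15. It was low around ZT11 and high at ZT23 and ZT3, and ZT15 did not overlap ZT3. The fitted amplitude was 0.95 ± 0.20 (SE) with a peak at ZT23.1 and an adjusted p of 0.79 without the block, and 0.95 ± 0.11 and 0.021 with it (limma). The adjusted p under the block was 0.029 after quantile normalization, 0.026 after median centring and 0.035 after neuron marker centring. Without any 1 array it lay between 0.013 and 0.096, and the call held only without ZT19 or without ZT15 replicate 1. The amplitude then ranged from 0.84 to 1.06 and the peak from ZT22.7 to ZT23.3. ZT15 minus ZT3 was -0.89 ± 0.12 (SE with the block, adjusted p 0.13, limma), -0.98 within the set of 4 and -0.69 within the set of 6.

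The partners of t in histamine recycling did not pass. e (ebony), the enzyme that joins beta-alanine to histamine and dopamine in glia and the epidermis, had an amplitude of 0.11 (adjusted p 1.0 with the block, limma). It was at 10.38 to 10.80 on the set of 4 and 9.23 to 9.72 on the set of 6, a difference of 1.10. CarT, which carries the histamine conjugate carcinine into photoreceptors, differed between ZT15 and ZT3 by -0.47 ± 0.13 (SE with the block, adjusted p 0.38, limma). Its amplitude was 0.27 and its difference between sets 0.69. Hdc, which makes histamine, had an amplitude of 0.44 ± 0.15 (adjusted p 0.60, with the block) and was at 11.50 at ZT23 against 10.26 to 10.66 at the other times on the set of 6. That value lay within the 11.16 to 11.71 of the set of 4.

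**Figure D5:**
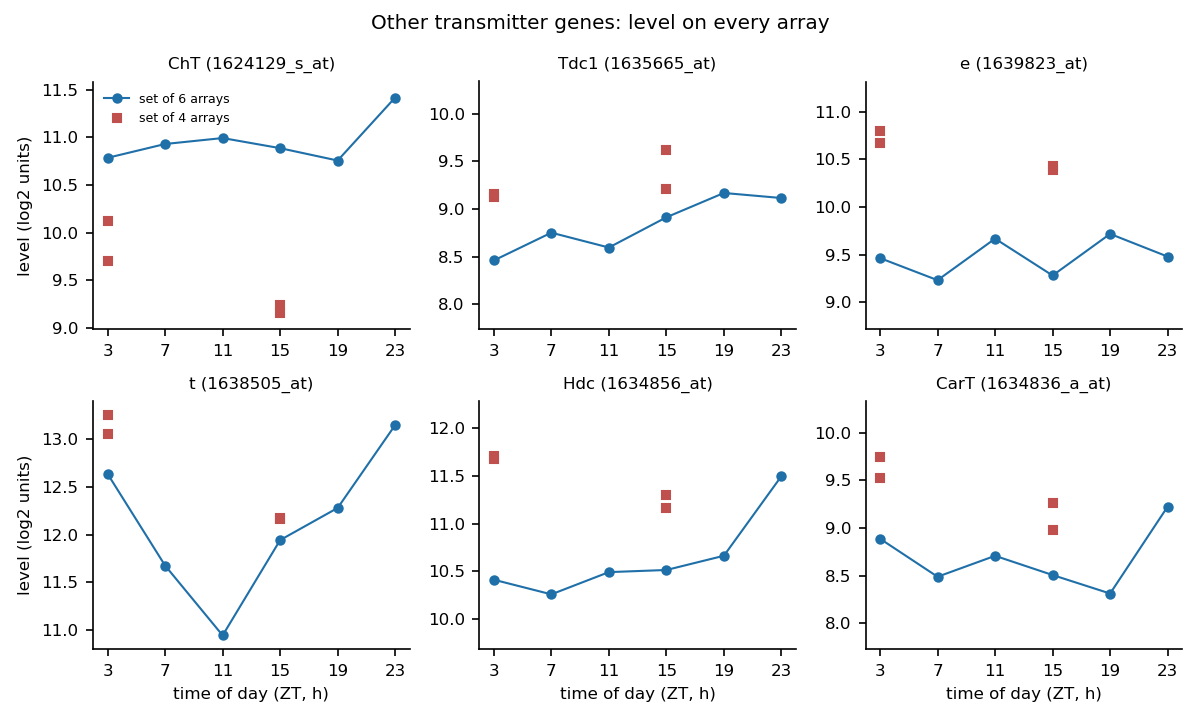
Level in log2 units (y) against time of day in hours (x) for 6 other transmitter genes named by rule, with blue circles for the set of 6 and red squares for the set of 4. On the set of 6 t is at 12.64 at ZT3, 10.94 at ZT11 and 13.15 at ZT23; e is higher on the set of 4, and ChT lower.

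ChT, the choline transporter that supplies ChAT, had the lowest difference between the sets of the 33 transmitter probe sets tested. It was at 9.70, 10.12, 9.15 and 9.24 on the set of 4 and at 10.76 to 11.42 on the set of 6. The difference was -1.41, inside the 5th percentile of -4.08 over all probe sets tested. ChT stayed lower, by -0.86, after neuron marker centring. VAChT was lower on the set of 4 too, while ChAT and Ace, the enzyme that breaks acetylcholine down, had values of 0.38 and 0.06 with overlapping sets. Ace was named after its values were seen. Tdc1, the tyrosine decarboxylase that acts outside neurons, differed between ZT15 and ZT3 by 0.33 ± 0.14 (SE with the block, adjusted p 0.55, limma). Its amplitude was 0.30, with a peak at ZT19.2 (adjusted p 0.58 with the block). The neuronal Tdc2, which lies close by in the reference annotation, had its peak at ZT22.8.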

How the data were processed

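The authors deposited 1 intensity per probe set and array, made with GCRMA (background correction by probe sequence, normalization and summary) per the submitters' processing notes; its version is not given in the sources used here. Deposited intensities reach 8527860, above the 65536 levels of a 16-bit scanner. Their natural log reaches 15.96 and their log2 23.02, so the natural log was read as the GCRMA log2 value. This scale was kept with earlier results of these data known, as were the members, gene lists, array sets and alternatives.

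Genes were assigned from the platform annotation, with attention to case, and gene IDs (13647 with 1 symbol, 402 with several, 4720 with none here). The 12991 with a mean of at least 4, without 183 controls, were tested with limma 3.58.1 in R 4.3.3 (lmFit, eBayes, Benjamini-Hochberg, threshold 0.05): ZT15 against ZT3 over 6 arrays and a cosine of 24 hours over 10. The fits were also run on simulated data, as a check of the code only. The planted differences and amplitudes there were larger than those of the 10 genes. Array sets came from average-linkage clustering of correlations without the members. All probe sets of the 10 genes are named. Of the other transmitter genes, those past the threshold and the 4 with the largest value per comparison are. Alternatives covered the filter, normalization, scale, variance prior, blocks, single sets and left-out arrays. The number of arrays limits the precision, and intensities carry no read depth.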

Additional observations from a re-analysis of the deposited data

How the results depend on the processing

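For ZT15 against ZT3 and for the rhythm, 0 of the tested probe sets of the 10 genes passed under every filter, normalization, scale, variance prior, block, single-set fit and left-out array, 0 to 0 in each case. The count whose array sets do not overlap, 7, was 7 to 9 under the alternatives. The labels do not say that replicate numbers pair the samples. Deviations of same-numbered arrays had correlations of -0.893, 0.804 and -0.903, whose signs follow the array sets and so say nothing about pairing. A replicate block gave 0 of 12. Of 432 single values of ZT15 minus ZT3 under alternatives, 44 turned sign. Without 1 replicate and with no block, the ranges were -0.142 to 0.094 for ChAT, -0.266 to 0.310 for VGlut, -0.165 to 0.015 for Gad1, -0.426 to 0.243 for ple, -0.0945 to 0.351 for Vmat 1637393_at, -0.271 to 0.189 for Vmat 1636275_a_at, -0.097 to 0.368 for Vmat 1628739_at, -0.465 to 0.431 for DAT, -0.731 to 0.069 for SerT, -0.390 to 0.040 for Tdc2 and -0.705 to 0.093 for e. With the array set block and 1 replicate left out, the turned values were 0.0088, 0.0048 and 0.0436 for ChAT, -0.188 and -0.101 for VGlut, 0.088 and 0.046 for ple, 0.043 for Vmat 1636275_a_at, -0.0088 for Vmat 1628739_at, and -0.057 and -0.111 for DAT. ple was at 0.079 after quantile normalization, 0.00087 after median centring and 0.027 after neuron marker centring, ChAT at 0.024 and 0.050 after the last 2, and VGlut and DAT at -0.101 and -0.111 in the set of 4 only. The r of Ddc and Vmat, 0.36, was -0.113 after neuron marker centring and -0.064 without the 2 farthest arrays. The causes were not tested. Of the amplitudes 6 gained significance, all of t and all with the array set block, and 555 kept their outcome. The block combined with another normalization, for t, was chosen after seeing the data.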

Other observations

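Named genes whose pattern was most like that of 4 of the transmitter genes over the 10 arrays, after the mean of each array set was taken off, are given with Pearson's r as a description. With 11288 probe sets compared over 10 arrays, many reach a high r, and 20 to 133 were over 0.9 for each gene. For Gad1 they were hang (0.985), unc-13 (0.983), which encodes a protein that primes synaptic vesicles, and Khc-73 (0.978), a kinesin. For ChAT they were Cpr49Ag (0.988), rsh (0.972) and wry (0.966). For VGlut they were fwe (0.974), lncRNA:CR42862 (0.959) and cno (0.952), and for ple l(2)k09913 (0.987), CG7058 (0.974) and mAChR-B (0.964), which encodes a muscarinic acetylcholine receptor.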
